A study of Mus musculus with 6 samples.

Results

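The genes described here are 34 interferon-stimulated and MHC class I genes, measured in mouse heart. They were listed by name from their known roles, with earlier results of these data known. Counts of these genes set beside shares of all genes are therefore descriptions and not a test of the list. Of these, 32 had a probe set that the array's annotation assigns to 1 gene symbol only, out of 18193 genes with such a probe set. For each gene the probe set with the highest mean log2 value over the 6 arrays stood for the gene. Isg15 was left out because its probe set names a second symbol, and Ifi44 had no probe set with a single symbol. Mx1 and Mx2 had mean levels under the filter, a signal of 50.2, and were not tested, which left 30 tested genes among the 11254 tested in all.

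RNA came from hearts of male mice aged 2 months, with 2 Affymetrix arrays in each of 3 groups, all on a B6 strain background. One line expressed RKIP, a protein that inhibits both the RAF kinase and the kinases of G-protein-coupled receptors, from the alpha-MHC promoter, which is active in cardiac muscle cells. A second line expressed, in the myocardium, a peptide inhibitor specific for those receptor kinases (GRK-Inh), and wild-type B6 mice were the controls. The labels do not give the number of founder lines or of hearts behind an array. Whether 2 arrays of a group represent different animals is also not given, so every p-value here reflects the scatter among these arrays alone, and that scatter may be technical.

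Myh6, the alpha-MHC gene itself and a marker of cardiomyocytes, gave high signals on every array, from 35906 to 39465. The share of cardiomyocyte RNA was not estimated. The mouse gene for RKIP, Pebp1, did not separate the groups. One of its probe sets gave 5567 to 5912 in the RKIP arrays, 5672 to 5885 in the GRK-Inh arrays and 5284 to 5622 in the controls, and the other gave 8766 to 9296 over all 6 arrays. A transgene of another species, or one without the probed end of the transcript, would not be seen there, so that group is called RKIP-labelled throughout. Array medians lay between 50.3 and 55.0 after the authors' scaling. For the actin control transcript, the ratio of 3' to 5' signal, a measure of RNA integrity and labelling, was 2.92 and 2.96 in the RKIP-labelled arrays, 3.03 and 2.998 in the GRK-Inh arrays, and 3.25 and 3.11 in the controls, and its part in the results below was not tested.

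Type I interferons are secreted by cells that sense viral or displaced nucleic acid, and interferon gamma mainly by lymphocytes. Type I interferons act through a complex with STAT2 and IRF9 that binds the interferon-stimulated response element (ISRE), and the response to interferon gamma runs through the gamma-activated site (GAS). The induced genes include antiviral effectors, GTPases that attack pathogen compartments, and the machinery by which MHC class I molecules display peptides on the cell surface. In uninfected tissue many of these genes keep a basal level that depends on tonic interferon signalling.

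The ISRE core was found near the start of some of these genes, and 5 that have it and were called in at least 1 comparison are shown. Ifit1 was called and has the core as well, at 104 and 85 bases before its start, but is not printed. Trim25, Irf7, Xaf1, H2-K1, H2-D1 and Psmb10 were called too, and their windows hold no match. Ifi27l2a was called and had no window to search. Each stretch is the 180 bases before the transcript start in RefSeq's GRCm38.p6 annotation, 5′ to 3′ on the gene's strand, and capitals mark each match to the ISRE core, which was searched as GAAA, any 2 bases and GAAA, or on the other strand as TTTC, any 2 bases and TTTC. Rsad2 lies at chr12:26456453-26456632 on the minus strand, Ifit3 at chr19:34583349-34583528 on the plus strand and Bst2 at chr8:71537473-71537652 on the minus strand. B2m lies at chr2:122147507-122147686 and Igtp at chr11:58199376-58199555, both on the plus strand. In Bst2 a pair of matches overlaps.
Rsad2: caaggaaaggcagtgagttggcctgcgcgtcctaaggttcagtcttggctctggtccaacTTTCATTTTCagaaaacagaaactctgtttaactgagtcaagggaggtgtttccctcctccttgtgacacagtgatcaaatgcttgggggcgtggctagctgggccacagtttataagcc
Ifit3: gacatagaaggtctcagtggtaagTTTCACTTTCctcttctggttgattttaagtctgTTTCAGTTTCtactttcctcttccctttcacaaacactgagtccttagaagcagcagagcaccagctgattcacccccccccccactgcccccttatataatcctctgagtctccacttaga
Bst2: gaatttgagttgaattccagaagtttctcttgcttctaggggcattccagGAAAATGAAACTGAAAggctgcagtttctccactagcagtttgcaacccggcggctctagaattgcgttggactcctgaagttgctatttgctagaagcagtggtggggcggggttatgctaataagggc
B2m: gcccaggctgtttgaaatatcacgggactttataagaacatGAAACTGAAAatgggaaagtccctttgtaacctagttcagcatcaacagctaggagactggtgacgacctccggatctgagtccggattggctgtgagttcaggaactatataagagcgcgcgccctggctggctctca
Igtp: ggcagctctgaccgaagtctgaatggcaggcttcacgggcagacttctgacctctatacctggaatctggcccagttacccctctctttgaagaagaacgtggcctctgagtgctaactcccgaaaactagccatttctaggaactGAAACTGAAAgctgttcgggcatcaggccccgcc

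In windows of 300 bases around the start (250 before, 50 after), the ISRE core was found in 13 of the 28 listed genes with a window (46.4%) and in 3.99% of 27025 genes. The GAS letters TTCNNNGAA, which read the same on both strands, were found in 6 of the 28 (21.4%) and in 9.55% of all genes. A match is a run of letters and not a shown binding site. Some matches of the ISRE core overlap each other, and none of these counts uses the arrays.

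In RKIP-labelled hearts the genes lay mostly below the controls. Of the 30 tested, 9 fell and 0 rose: Trim25, Rsad2, Ifit1, Ifit3, Bst2, Ifi27l2a, Xaf1, H2-K1 and B2m (limma, Benjamini-Hochberg adjusted p under 0.05 over all 11254 tested genes). Over all tested genes 5.51% were called lower in that comparison and 5.32% higher. The median log2 fold change of the 32 genes was -0.26, against -0.01 over all 18193 genes, and 31 of the 32 lay below 0 against 51.4% of all genes. Both RKIP-labelled arrays lay under both control arrays in 23 of the 32, an arrangement found in 24.0% of all genes, and above both controls in 1, Mx2, against 22.1% of all genes.

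In GRK-Inh hearts the list divided. H2-D1, B2m and Igtp rose, while Trim25, Irf7, Ifit3, Ifi27l2a and Psmb10 fell (limma as above). Over all tested genes 5.86% were called higher and 7.27% lower, so the 3 of 30 and 5 of 30 called here stand nearer to the background than the count in RKIP-labelled hearts does. With every array shifted to the same median the split over all genes moved from 659 higher and 818 lower to 897 higher and 597 lower, and 3 of the genes described here were then called lower. The median of the 32 genes was -0.12, against -0.02 over all genes. Both GRK-Inh arrays lay under both controls in 14 of the 32 (27.6% of all genes) and above both in 7 (21.0% of all genes).

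The transgenic lines were also compared directly, which does not use the control arrays for the difference itself. Rsad2, Bst2, H2-K1, H2-D1, B2m and Igtp were lower in RKIP-labelled than in GRK-Inh hearts, and 0 of the 30 were higher. Over all genes 8.82% were called, 4.35% lower and 4.47% higher, a split of 490 lower and 503 higher that became 600 and 318 with the arrays shifted to the same median. The arrays did not overlap, with RKIP-labelled the lower, in 16 of the 32 genes (20.1% of all genes), and with RKIP-labelled the higher in 2 (25.9% of all genes). All 3 comparisons draw on the same 6 arrays, and both lines are set against the same 2 control arrays.

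**Figure D1:**
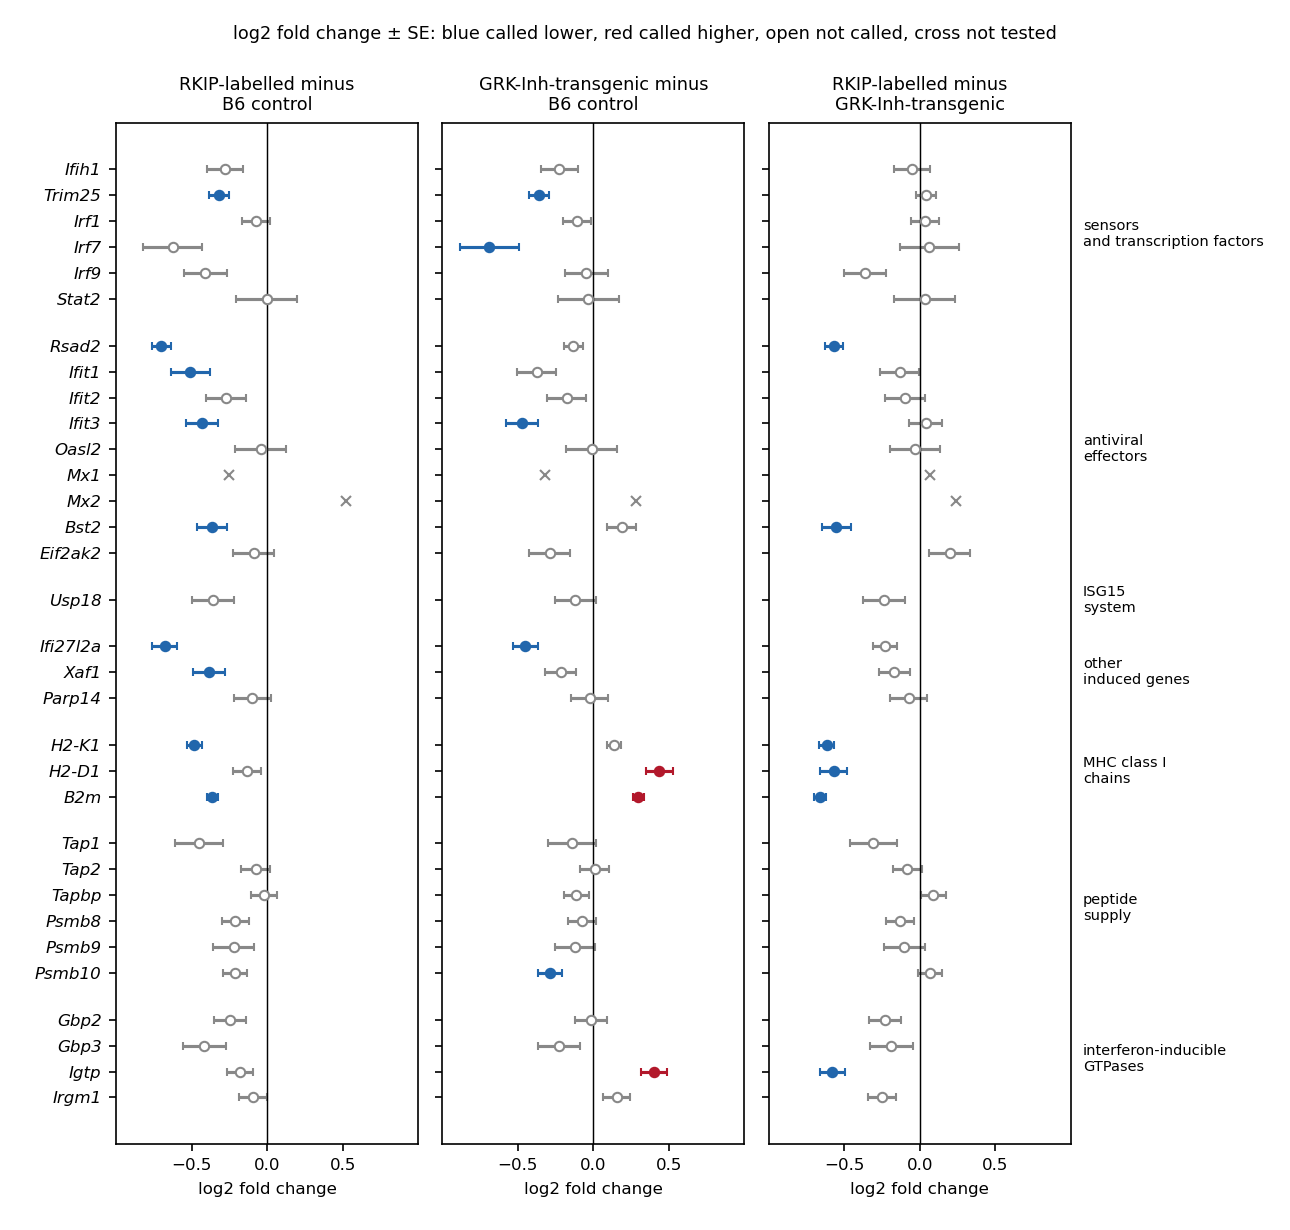
Each point is the log2 fold change of 1 gene on the log2(signal + 50) scale, with its SE as a bar, in RKIP-labelled against B6 control hearts (left), GRK-Inh-transgenic against B6 control hearts (middle) and the RKIP-labelled against GRK-Inh-transgenic hearts (right). Blue points were called lower, red points higher, open points were not called and crosses were not tested; the left panel holds 9 blue points and 0 red ones, the middle panel 5 blue and 3 red, and the right panel 6 blue.

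The MHC class I chains had the largest median difference between the lines of any role, at -0.62 on the log2 scale. B2m encodes beta-2-microglobulin, the light chain that every class I molecule needs to reach the surface. Its signal was 6693 and 6580 in the RKIP-labelled arrays, 10355 and 10688 in the GRK-Inh arrays, and 8535 and 8558 in the controls. The 3 groups did not overlap, with the control level between those of the lines. Against controls, B2m fell by 0.36 ± 0.038 on the log2 scale in RKIP-labelled hearts (limma adjusted p = 0.000184). It rose by 0.30 ± 0.038 in GRK-Inh hearts (adjusted p = 0.000532), and the lines differed by -0.66 ± 0.038 (adjusted p = 2.08e-06). Both calls against controls were lost when variances were not moderated along a trend (adjusted p up to 0.0588 and 0.0597 over the alternatives).

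H2-K1 and H2-D1 encode the classical class I heavy chains, which hold the peptide. H2-K1 gave 2484 and 2520 in RKIP-labelled hearts, 3860 and 3861 in GRK-Inh hearts and 3578 and 3448 in controls. As for B2m, the RKIP-labelled arrays were the lowest and the GRK-Inh arrays the highest. The fall against controls was -0.48 ± 0.048 (limma adjusted p = 0.000124) and the difference between lines was -0.62 ± 0.048 (adjusted p = 2.23e-05), whereas GRK-Inh hearts stood at 0.13 ± 0.048 above controls (adjusted p = 0.0915), short of the threshold except with the arrays shifted to one median (adjusted p = 0.0487). For H2-D1 the signals were 2072 and 2375 in RKIP-labelled hearts, 3211 and 3424 in GRK-Inh hearts and 2689 and 2209 in controls. Here the RKIP-labelled arrays overlapped the controls (-0.13 ± 0.090, adjusted p = 0.404) and the GRK-Inh arrays lay above all others. H2-D1 rose in GRK-Inh hearts by 0.44 ± 0.090 (limma adjusted p = 0.00889), a call lost without GRK-Inh array 2 or control array 2 (adjusted p = 0.0638 to 0.0759). The difference between lines was -0.57 ± 0.090 (adjusted p = 0.00327) and was lost when variances were not moderated along a trend (adjusted p = 0.0805).

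Several probe sets bear on these chains and on Rsad2. Both probe sets of B2m were called in all 3 comparisons, with log2 fold changes of -0.36 and -0.33, 0.30 and 0.41, and -0.66 and -0.74 in the order used above. Each of H2-K1 and H2-D1 had 4 probe sets above the filter. For H2-K1 these ran from -0.48 to -0.04 in RKIP-labelled hearts, with 1 called lower, and from 0.10 to 0.25 in GRK-Inh hearts, with 0 called. For H2-D1 they ran from -0.52 to -0.13 in RKIP-labelled hearts, with 2 called lower, and from 0.09 to 0.44 in GRK-Inh hearts, with 1 called higher. Against GRK-Inh hearts 1 of the 4 for H2-K1 and 3 of the 4 for H2-D1 were called lower in RKIP-labelled hearts. All 4 probe sets of either gene lay on the same side of 0 in each comparison. Class I heavy chain genes are closely similar in sequence, and the probe sets standing for H2-K1 and H2-D1 are of a kind that can share transcripts, so which heavy chain gene a signal belongs to is uncertain.

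**Figure D2:**
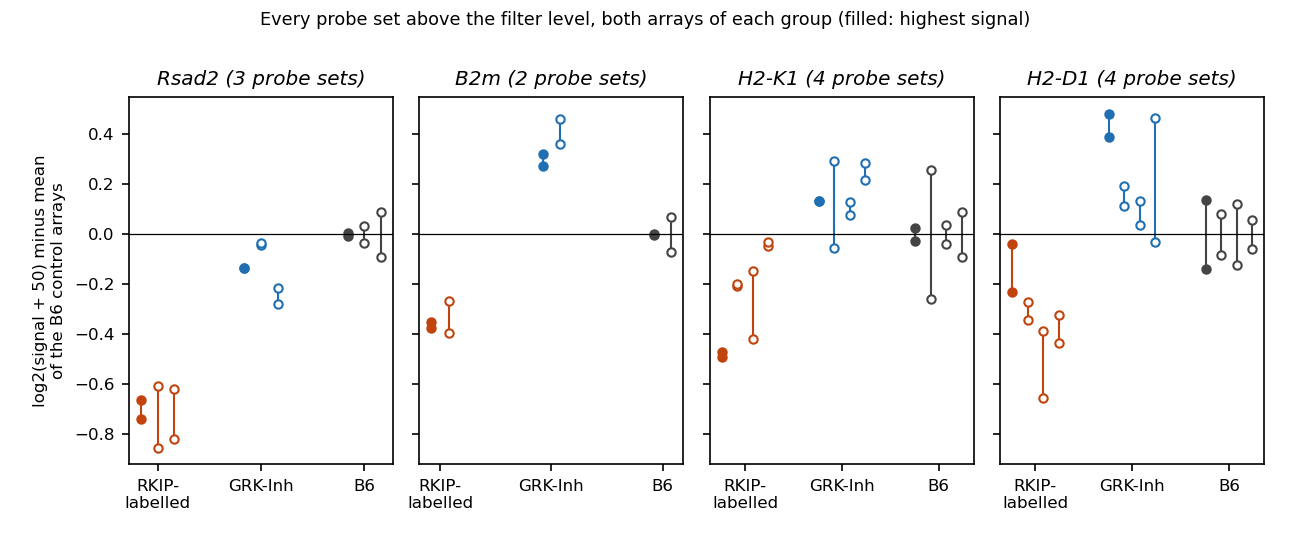
The vertical axis is log2(signal + 50) minus the mean of the B6 control arrays, for every probe set above the filter of Rsad2 (3 probe sets), B2m (2), H2-K1 (4) and H2-D1 (4). Each joined pair of points is 1 probe set in both arrays of a group, filled where it stands for the gene; all RKIP-labelled points lie below 0, and all probe sets of B2m have GRK-Inh points above 0.

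Genes that supply peptides to class I moved less. Tap1 and Tap2 form the transporter that brings peptides into the endoplasmic reticulum, Tapbp (tapasin) links it to the class I heavy chain, and Psmb8, Psmb9 and Psmb10 are the catalytic subunits of the immunoproteasome. Of these 6 genes, 0 were called in RKIP-labelled hearts and 1, Psmb10, was called lower in GRK-Inh hearts. Psmb10 gave 909 and 805 in RKIP-labelled hearts, 824 and 802 in GRK-Inh hearts and 1033 and 970 in controls. Both lines lay below the controls, at -0.22 ± 0.080 (limma adjusted p = 0.12) and -0.28 ± 0.080 (adjusted p = 0.0397). The latter call was lost without any single one of the 4 arrays compared (adjusted p = 0.0828 to 0.189). Psmb8 gave 383 and 363 in RKIP-labelled hearts, 410 and 418 in GRK-Inh hearts and 442 and 437 in controls, which do not overlap, yet neither difference from controls was called (-0.21 ± 0.092, adjusted p = 0.187, in RKIP-labelled hearts).

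Tap1 had the largest log2 difference from controls of this group in RKIP-labelled hearts, with signals of 90.1 and 112 against 176 and 137 in controls and 132 and 140 in GRK-Inh hearts. The RKIP-labelled arrays were the lowest, but at -0.45 ± 0.16 the difference was not called (limma adjusted p = 0.101). Psmb9 lies head to head with Tap1: on chromosome 17 the genes are transcribed in opposite directions with 225 bases between their starts in GRCm38.p6. Psmb9 signals were 234 and 188 in RKIP-labelled hearts, 209 and 251 in GRK-Inh hearts and 250 and 257 in controls, and no difference was called. Tap2 lay within 337 to 371 and Tapbp within 944 to 1124 over all arrays, with no call in any comparison.

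Among antiviral effectors, Rsad2 stood out. It encodes viperin, a radical SAM enzyme that makes a chain-terminating nucleotide. Its signal was 943 and 996 in RKIP-labelled hearts, 1461 and 1459 in GRK-Inh hearts and 1600 and 1612 in controls. All 3 groups were separate and the RKIP-labelled mean was 0.604 of the control mean. Rsad2 fell by 0.70 ± 0.062 against controls (limma adjusted p = 5.63e-05) and was lower than in GRK-Inh hearts by -0.57 ± 0.062 (adjusted p = 0.000292). GRK-Inh hearts stood at -0.13 ± 0.062 against controls (adjusted p = 0.187). All 3 of its probe sets were called lower in RKIP-labelled hearts, from -0.73 to -0.70, and 2 of the 3 against GRK-Inh hearts.

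The Ifit genes encode proteins that bind foreign RNA ends. Ifit3 gave 302 and 301 in RKIP-labelled hearts, 306 and 278 in GRK-Inh hearts and 452 and 399 in controls, so that both lines lay below the controls and overlapped each other. It fell by 0.43 ± 0.11 in RKIP-labelled hearts (limma adjusted p = 0.0272) and by 0.47 ± 0.11 in GRK-Inh hearts (adjusted p = 0.0147). The first call was lost without any single one of the 4 arrays compared (adjusted p = 0.0574 to 0.164), and the second without GRK-Inh array 2 or control array 1 (adjusted p = 0.0953 to 0.11). Ifit1 gave 197 and 172, then 205 and 208, then 256 and 311 in the same order of groups. It was called lower in RKIP-labelled hearts (-0.51 ± 0.13, adjusted p = 0.0315), a call also lost without any 1 of those 4 arrays (adjusted p = 0.0508 to 0.194), and stood at -0.38 ± 0.13 in GRK-Inh hearts (adjusted p = 0.0852). Ifit2 overlapped between GRK-Inh and control hearts and was not called in any comparison.

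Bst2 encodes tetherin, which holds budding virus at the membrane. It gave 398 and 419 in RKIP-labelled hearts, 594 and 650 in GRK-Inh hearts and 581 and 502 in controls. The RKIP-labelled arrays were lowest and the GRK-Inh arrays highest, as for B2m and H2-K1. Against GRK-Inh hearts Bst2 was lower by -0.55 ± 0.098 (limma adjusted p = 0.0061), lost without GRK-Inh array 2 (adjusted p = 0.0552). Against controls it fell by 0.36 ± 0.098 (limma adjusted p = 0.0382), and GRK-Inh hearts stood at 0.19 ± 0.098 (adjusted p = 0.243). The fall lost its call in 8 of the 17 alternatives. Among them were no filter, a variance without trend, and the fits without either RKIP-labelled array or control array 1.

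The remaining effectors were not called. Eif2ak2, the kinase PKR that halts translation on double-stranded RNA, gave 237 to 362 over all arrays, and Oasl2, a relative of the oligoadenylate synthetases, gave 81.8 to 106 (limma adjusted p = 0.742 and 0.908 in RKIP-labelled hearts). Mx1, a GTPase against viral nucleoproteins, had signals of 3.04 and 25.2, 16.7 and 4.11, and 24.0 and 26.3 in the same order. Mx2, its paralogue, had 63.8 and 10.4, 12 and 29.7, and 7.52 and 8.09. Signals at that level have no secure order, and the single gene above 0 in RKIP-labelled against control hearts was Mx2.

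**Figure D3:**
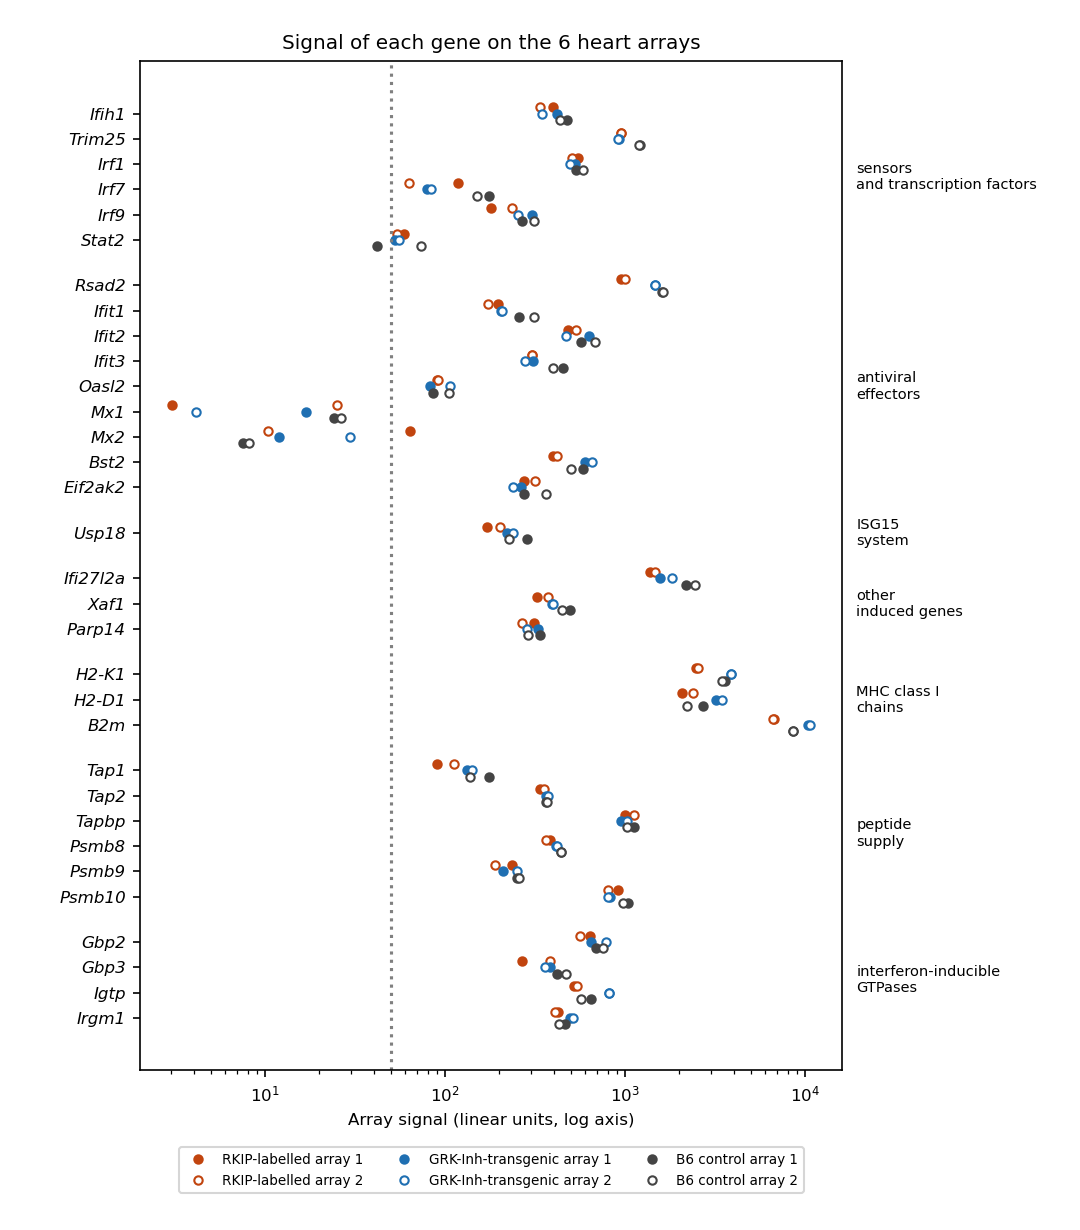
The horizontal log axis is the array signal in linear units, and each row is 1 of the 32 genes with its 2 RKIP-labelled, 2 GRK-Inh-transgenic and 2 B6 control arrays; the dotted line is the filter at 50.2. The RKIP-labelled points of Rsad2 (943 and 996), H2-K1 (2484 and 2520) and B2m (6693 and 6580) stand to the left of both other groups, and only Mx1 and Mx2 have mean log2 levels under the filter.

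Ifi27l2a, a small membrane protein gene strongly induced by interferon, was lower in both lines. It gave 1376 and 1469 in RKIP-labelled hearts, 1553 and 1806 in GRK-Inh hearts and 2181 and 2437 in controls. No arrays of different groups overlapped. The fall was -0.68 ± 0.082 in RKIP-labelled hearts (limma adjusted p = 0.000451) and -0.45 ± 0.082 in GRK-Inh hearts (adjusted p = 0.00423), the latter lost without control array 2 (adjusted p = 0.0537). The lines were not called different (-0.23 ± 0.082, adjusted p = 0.119).

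Xaf1, which binds and antagonises the apoptosis inhibitor XIAP, gave 322 and 372 in RKIP-labelled hearts, 394 and 396 in GRK-Inh hearts and 493 and 443 in controls. Its arrays too were ordered RKIP-labelled, GRK-Inh, control with no overlap. The call in RKIP-labelled hearts (-0.38 ± 0.10, limma adjusted p = 0.0399) was lost in 11 of the 17 alternatives, with adjusted p up to 0.218. Among them were all fits without 1 array except that without RKIP-labelled array 2. Usp18, the protease that removes ISG15 and also dampens the interferon receptor, gave 171 and 202 in RKIP-labelled hearts against 283 and 225 in controls (-0.36 ± 0.14, adjusted p = 0.131) and 219 and 238 in GRK-Inh hearts. Parp14, an ADP-ribosyltransferase, lay within 265 to 334 with all groups overlapping.

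Sensors and transcription factors included 1 gene called lower in both lines. Trim25, the ubiquitin ligase that activates the RNA sensor RIG-I, gave 946 and 952 in RKIP-labelled hearts, 924 and 915 in GRK-Inh hearts and 1202 and 1188 in controls. The arrays of both lines were tightly grouped below the controls. Another Trim25 probe set above the filter was called in neither line when all probe sets were tested singly. It stood at -0.22 in RKIP-labelled hearts (limma adjusted p = 0.199) and -0.33 in GRK-Inh hearts (adjusted p = 0.0542). In the probe set that stands for the gene, the fall was -0.32 ± 0.065 in RKIP-labelled hearts (limma adjusted p = 0.0114) and -0.36 ± 0.065 in GRK-Inh hearts (adjusted p = 0.00423). The first was lost without any 1 of the 4 arrays compared (adjusted p = 0.0514 to 0.0661), whereas the second kept its call under all 17 alternatives.

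Irf7 is the factor that amplifies type I interferon production. It gave 117 and 62.9 in RKIP-labelled hearts, 79.4 and 83.4 in GRK-Inh hearts and 174 and 150 in controls. Every transgenic array lay below both controls, while the RKIP-labelled pair was wide enough to span the GRK-Inh pair. Irf7 was called lower in GRK-Inh hearts (-0.69 ± 0.20, limma adjusted p = 0.0419), and this call was lost without any 1 of the 4 arrays compared (adjusted p = 0.109 to 0.203). In RKIP-labelled hearts it stood at -0.62 ± 0.20 (adjusted p = 0.0699), and at adjusted p = 0.0242 without RKIP-labelled array 1. Irf9, the DNA-binding part of the type I complex, gave 180 and 234 in RKIP-labelled hearts, 303 and 255 in GRK-Inh hearts and 268 and 312 in controls (-0.41 ± 0.14, adjusted p = 0.0972, in RKIP-labelled hearts). Ifih1, which encodes the RNA sensor MDA5, gave 395 and 336 in RKIP-labelled hearts, 420 and 343 in GRK-Inh hearts and 474 and 431 in controls, and was not called. Irf1, a factor induced by interferon gamma, lay within 494 to 579, and Stat2, at 41.6 to 73.7, was close to the filter, and neither was called in any comparison.

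Among the interferon-inducible GTPases, Igtp was called in GRK-Inh hearts. This gene, also known as Irgm3, belongs to the immunity-related GTPases that act on vacuoles of intracellular pathogens. Its signals were 521 and 540 in RKIP-labelled hearts, 816 and 815 in GRK-Inh hearts and 644 and 570 in controls. The GRK-Inh arrays were the highest and the RKIP-labelled arrays the lowest, with no overlap. Igtp rose by 0.40 ± 0.085 in GRK-Inh hearts (limma adjusted p = 0.0105), lost without either GRK-Inh array or control array 2 (adjusted p = 0.0576 to 0.0805). The lines differed by -0.58 ± 0.085 (adjusted p = 0.00202), and RKIP-labelled hearts stood at -0.18 ± 0.085 against controls (adjusted p = 0.224). Irgm1, another member of that family, showed the same order of groups at smaller distances (422 and 408, 491 and 514, 464 and 430) and was not called.

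The guanylate-binding proteins Gbp2 and Gbp3, which coat pathogen membranes, were not called either. Gbp3 gave 265 and 383 in RKIP-labelled hearts, 383 and 359 in GRK-Inh hearts and 419 and 468 in controls, with the RKIP-labelled arrays far apart (-0.42 ± 0.14, limma adjusted p = 0.0932, and 0.0157 without RKIP-labelled array 2). Gbp2 gave 633 and 563, 643 and 782, and 686 and 750 in the same order. Both RKIP-labelled arrays of either gene lay below both controls.

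By role and array, the class I chains set the lines furthest apart. The median deviation of the 3 chains from the control mean was -0.35 and -0.37 (log2) in the RKIP-labelled arrays and 0.28 and 0.32 in the GRK-Inh arrays. For the 9 antiviral effectors it was -0.40 and -0.20, then -0.13 and -0.35. For the 6 sensors and factors it was -0.25 and -0.29, then -0.08 and -0.25. For all 32 genes the RKIP-labelled arrays stood at -0.28 and -0.26 and the GRK-Inh arrays at -0.13 and -0.11, so the 2 arrays of each line were close to each other. These medians are descriptions and were not tested.

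**Figure D4:**
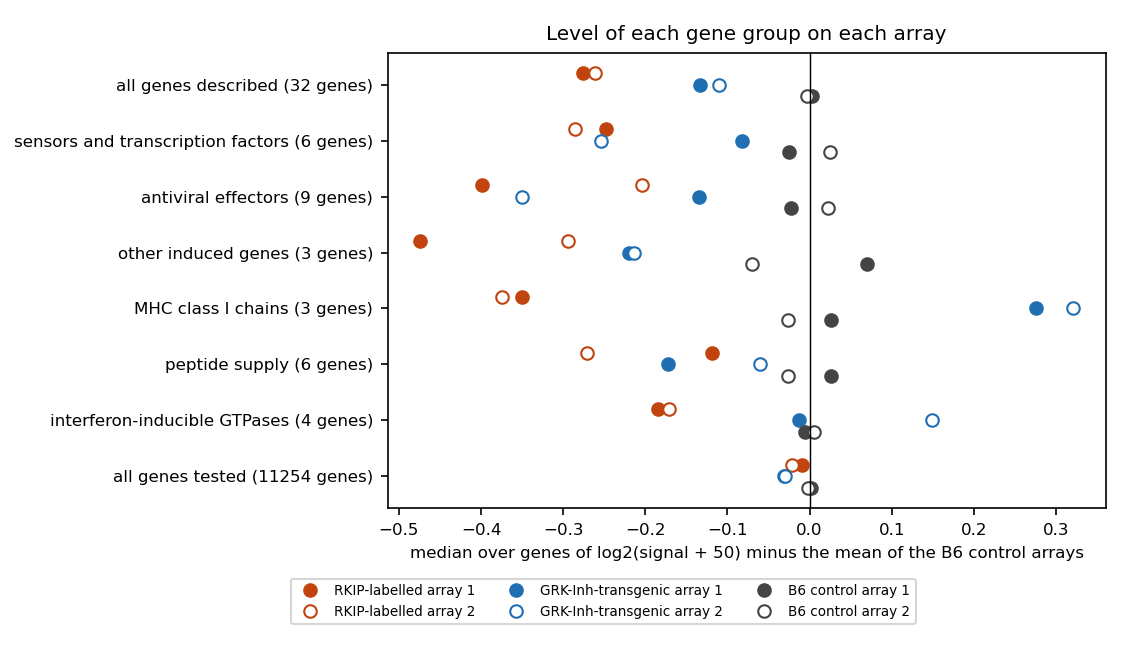
The horizontal axis is the median, over the genes of a role, of log2(signal + 50) minus the mean of the B6 control arrays, with 1 point per array. The RKIP-labelled arrays stand left of 0 for every role shown, and the GRK-Inh arrays stand right of 0 for the MHC class I chains (0.28 and 0.32); the row for all tested genes lies within -0.03 to 0.00.

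The ISRE core in the promoter window was set beside the levels. The 12 genes with a probe set and the core had a median log2 fold change of -0.32 in RKIP-labelled hearts, with 5 called lower, and the 14 genes with a window and no core had a median of -0.25, with 3 called lower. In GRK-Inh hearts the medians were -0.08 and -0.12. B2m, Bst2 and Igtp, printed above with the core, lay below controls in RKIP-labelled and above controls in GRK-Inh hearts. Ifit3 and Rsad2, also printed above, lay below controls in both. Of the 12 genes with the core, all lay below 0 in RKIP-labelled hearts. In GRK-Inh hearts 8 lay below 0 and 4 above.

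The wider pathway was examined through lists of related genes. Over all tested genes 5.51% were called lower and 5.32% higher in RKIP-labelled hearts, and 7.27% and 5.86% in GRK-Inh hearts. Between the lines 4.35% were lower and 4.47% higher. Those shares stand beside the counts of each list and marker set below. Of 45 other interferon-stimulated genes 39 had a probe set and 35 were tested. In RKIP-labelled hearts 7 fell and 0 rose, with a median of -0.14 over the 39. The largest falls were Cmpk2, a mitochondrial nucleotide kinase gene beside Rsad2 (-0.74 ± 0.16, limma adjusted p = 0.0132, lost without RKIP-labelled array 2 or either control array), and Irgm2 (-0.63 ± 0.11, adjusted p = 0.0049, lost without control array 1). Rnf213, a ubiquitin ligase gene (-0.45 ± 0.10, adjusted p = 0.0195, lost without RKIP-labelled array 1 or control array 2), and Gbp7 (-0.42 ± 0.075, adjusted p = 0.00512) followed. Without the arrays named, the adjusted p was 0.0504 to 0.114 for Cmpk2, 0.0569 for Irgm2 and 0.123 to 0.149 for Rnf213.

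In GRK-Inh hearts 4 of the 35 tested genes of that list fell and 1 rose, with a median of -0.07. Over all tested genes 7.27% were called lower and 5.86% higher. These counts stand nearer to the background than the 7 of 35 lower in RKIP-labelled hearts. Gbp6 rose (0.74 ± 0.12, limma adjusted p = 0.00211), with signals of 582 and 474 against 276 and 313 in controls and 318 and 353 in RKIP-labelled hearts. Trim30a fell by 0.48 ± 0.12 (adjusted p = 0.0243, lost without GRK-Inh array 2 or either control array, at 0.0745 to 0.164), and Nmi, an interferon-induced gene, fell by 0.42 ± 0.085 (adjusted p = 0.00737, lost without GRK-Inh array 2, at 0.0523). Ifitm3, which blocks viral entry, fell by 0.38 ± 0.051 (adjusted p = 0.000737). Nmi and Ifitm3 were called lower in RKIP-labelled hearts too (-0.31 ± 0.085, limma adjusted p = 0.0399, and -0.35 ± 0.051, adjusted p = 0.00172). Between the lines 3 genes were lower in RKIP-labelled hearts: Irgm2, Gbp6 and Gbp7. The Gbp6 call was lost without RKIP-labelled array 1 or GRK-Inh array 1 (adjusted p = 0.083 to 0.116) and that of Gbp7 without a variance trend (0.0504). Irgm2, a relative of Igtp, gave 266 and 327 in RKIP-labelled hearts, 567 and 596 in GRK-Inh hearts and 517 and 454 in controls (-0.87 ± 0.11 between the lines, adjusted p = 0.000825). Its groups were ordered as those of Igtp were.

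Upstream of the response, 0 to 2 genes of each list were called against controls in each line. Ifngr2, the signalling chain of the interferon gamma receptor, was the single called gene of 8 ligands and receptors against controls, of which 4 were tested. It fell by 0.30 ± 0.056 in RKIP-labelled hearts (limma adjusted p = 0.00721, 0.0607 without control array 2) and by 0.38 ± 0.056 in GRK-Inh hearts (adjusted p = 0.00129). Ifngr1, the ligand-binding chain, was lower in RKIP-labelled than in GRK-Inh hearts (-0.31 ± 0.076, adjusted p = 0.0294, lost without any 1 of the 4 arrays compared, at 0.105 to 0.131). The ligand genes Ifnb1 and Ifng had mean levels under the filter, with signals of 5.51 to 49.0 on the 6 arrays. Ptpn11, the phosphatase SHP-2, rose in both lines (0.33 ± 0.049 in each, adjusted p = 0.00178 and 0.0012). Jak1 rose in RKIP-labelled hearts (0.21 ± 0.058, adjusted p = 0.0445) and Stat3 in GRK-Inh hearts (0.26 ± 0.058, adjusted p = 0.014). Those calls were lost without any 1 of the 4 arrays compared for Jak1 (0.0685 to 0.216) and without 3 of the arrays for Stat3 (0.0648 to 0.0805). In all, 2 of the 9 tested JAK-STAT genes rose in each line and 0 fell, out of 10 with a probe set. Between the lines Stat3 was the single one called, lower in RKIP-labelled hearts (-0.21 ± 0.058, limma adjusted p = 0.0497). This call was lost in 13 of the 17 alternatives, quantile normalization among them.

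Ddx58 is the gene of RIG-I, the sensor that Trim25 modifies. It was the single called gene of 12 sensors and adaptors against controls, of which 9 were tested. Between the lines Ticam1 was the single one called, lower in RKIP-labelled than in GRK-Inh hearts (-0.90 ± 0.24, limma adjusted p = 0.045). Its signals were 31.2 and 80.7 against 157 and 129. The call was lost in 11 of the 16 alternatives that tested it, an offset of 16 and no filter among them. Ddx58 gave 208 and 239 in RKIP-labelled hearts, 251 and 249 in GRK-Inh hearts and 364 and 326 in controls, both lines below the controls. The fall was -0.53 ± 0.12 (limma adjusted p = 0.0149, lost without RKIP-labelled array 1 or control array 1, at 0.0945 to 0.107) and -0.40 ± 0.12 (adjusted p = 0.0481, lost without any 1 of the 4 arrays compared, at 0.0878 to 0.217). The list of other interferon regulatory factors also held genes of proteins that bind IRF2, Irf2bp2 among them. Of its 7 genes with a probe set, 6 were tested and 0 were called in any comparison, Irf2bp2 and Irf3 having the highest signals. Irf2bp2 passed the threshold between the lines without either control array, and in GRK-Inh hearts without control array 2, with lowest adjusted p over the alternatives of 0.0345 and 0.0396. The constitutive proteasome subunits Psmb5, Psmb6 and Psmb7, which the immunoproteasome subunits replace, had 0 calls in any comparison.

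Other genes of class I loading gave 0 calls in RKIP-labelled and 2 rises in GRK-Inh hearts, out of 8 tested and 9 with a probe set. These were Canx (calnexin, 0.30 ± 0.043, limma adjusted p = 0.00117) and Pdia3 (ERp57, 0.29 ± 0.054, adjusted p = 0.00513, 0.0562 without GRK-Inh array 2), endoplasmic reticulum chaperones that fold class I heavy chains among many other proteins. Both were lower in RKIP-labelled than in GRK-Inh hearts (-0.22 ± 0.043, adjusted p = 0.00938, and -0.21 ± 0.054, adjusted p = 0.0418). So was Nlrc5, the transactivator of class I genes (-0.70 ± 0.18, adjusted p = 0.0395), with signals of 71.1 and 56.1 against 143 and 126, and 94.4 and 62.4 in controls. These 3 calls between the lines were lost without 1 array: for Canx at adjusted p up to 0.0799, for Pdia3 up to 0.244 and for Nlrc5 up to 0.193. Without a variance trend the rise of Canx in GRK-Inh hearts and that of Ptpn11 in RKIP-labelled hearts were lost too (adjusted p = 0.0697 and 0.0721).

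**Figure D5:**
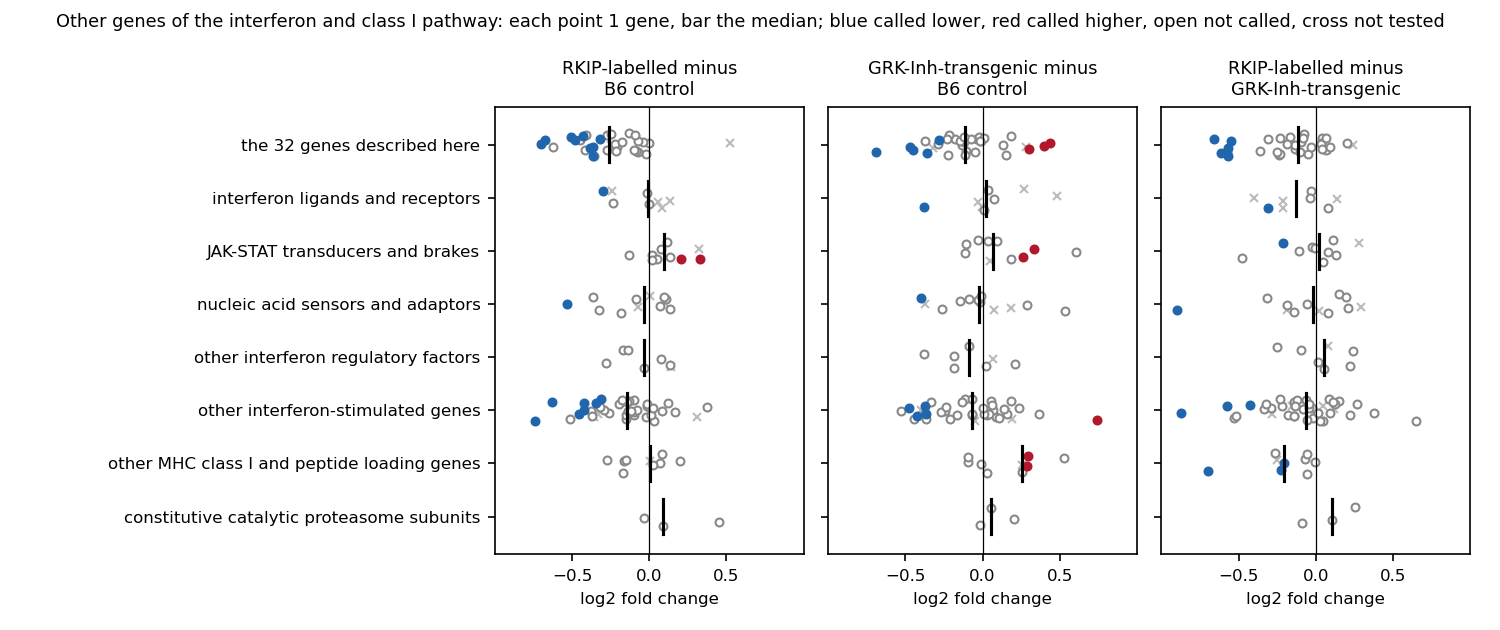
Each point is the log2 fold change of 1 gene and each bar the median of its list, for the 32 genes described here and the 7 related lists, in the same 3 comparisons. Blue points were called lower, red points higher, open points were not called and crosses were not tested. The medians of the 32 genes (-0.26, -0.12 and -0.12) stand left of 0 in each panel. That of other class I and loading genes is 0.25 in GRK-Inh hearts, which is the value of H2-Q10, an untested gene under the filter.

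These are whole-heart samples, in which fewer cells of a type and less RNA per cell cannot be told apart. Interferon-stimulated and class I genes are active in endothelial cells, macrophages and fibroblasts as well as in cardiomyocytes, so markers of those cells are given beside the results. Of 11 fibroblast markers 7 were lower in RKIP-labelled and 9 in GRK-Inh hearts, with summed signals of 57557 to 59535, 54274 to 54385 and 68733 to 69118 in RKIP-labelled, GRK-Inh and control arrays. Both lines lay below the controls in these sums, and RKIP-labelled arrays lay above GRK-Inh arrays. Between the lines 1 fibroblast marker, Lum, was called, higher in RKIP-labelled hearts (0.52, limma adjusted p = 0.000249). Of 13 macrophage markers 1 (Csf1r) was lower in RKIP-labelled and 3 (Adgre1, Csf1r and Mrc1) in GRK-Inh hearts, with sums of 12480 to 13014, 11210 to 11328 and 13267 to 13561. Between the lines Csf1r (0.24, adjusted p = 0.0108) and Mrc1 (0.45, adjusted p = 0.00529) were higher in RKIP-labelled hearts.

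Of 11 endothelial markers 2 (Kdr and Tek) were lower in RKIP-labelled hearts, and in GRK-Inh hearts 1 (Flt1) was higher and 2 (Tek and Emcn) were lower. Their sums were 9191 to 9315 in RKIP-labelled, 9880 to 10097 in GRK-Inh and 10062 to 10379 in control arrays, so the RKIP-labelled sums were lowest and the GRK-Inh and control sums overlapped. Between the lines Pecam1, Kdr and Flt1 were lower in RKIP-labelled hearts, and 0 were called higher. Eng (0.26), Emcn (0.24) and Vwf (0.26) stood above the GRK-Inh arrays without overlap and were not called. Lymphocyte markers were near background: 11 of 13 lay under the filter, Cd3e among them at 7.14 to 46.0, and the sum over the list was 322 to 324, 379 to 432 and 302 to 376. Ms4a1, a B cell marker, was the single one called, lower in RKIP-labelled than in GRK-Inh hearts (35.1 and 37.4 against 96.4 and 93.2). All 3 neutrophil and all 5 dendritic cell markers with a probe set were under the filter. Of 9 cardiomyocyte markers 1, Actc1, was called lower in RKIP-labelled hearts, by 0.12, and 0 in GRK-Inh hearts. The part of any of these cell types in the results was not tested.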

How the data were processed

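Heart RNA of 6 samples was measured, 2 in each of 3 groups; titles gave the groups, and every sample was used. Per the labels' protocols, total RNA was isolated with an RNeasy Midi kit and biotinylated cRNA was prepared for Affymetrix arrays. For each of 45101 probe sets the authors deposited an intensity on a linear scale, which came from GCOS (version not given) per the submitters' processing notes. Every array had the same 2% trimmed mean of 300.002, as checked on the values. Precision is limited by the number of arrays, with a median SE of 0.115 for log2 fold changes.

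The platform annotation gave 34945 probe sets 1 gene symbol, and 64 control probe sets were set aside. Signals were transformed as log2(signal + 50) without further normalization, and fold changes are on that scale, which understates the change of low genes. Of 18193 genes, each represented by its probe set of highest mean, the 11254 with a mean log2 value of at least 6.65 (a signal of 50.2), the median over non-control probe sets, were tested with limma 3.58.1 (R 4.3.3). A single model over the 6 arrays had 3 residual and 7.60 prior degrees of freedom, with variances moderated along a trend. Calls required an adjusted p (Benjamini-Hochberg, two-sided, over all tested genes) under 0.05. Errors after ± are the model's SE. The procedure was tested on simulated data.

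The genes, roles and lists were chosen with earlier results of these data known. All 34 genes are named; of each other list, up to 4 called genes with the largest change per comparison are named, or up to 2 of highest signal where none was called. Genes named beyond that rule (Iigp1, Ifit1bl1, Mndal, Cd3e, Eng, Vwf, the ligands at background and the called cell markers) were chosen after their values were seen. Promoter sequences and coordinates are RefSeq's (GRCm38.p6). Same-numbered arrays did not deviate together: the correlations between groups, across 11254 genes, were 0.03, -0.03 and -0.03. Alternatives were quantile normalization, a shift of arrays to one median, no filter or one at the 75th percentile, offsets of 16 and 200, all probe sets singly, a variance without trend or robust, only the compared arrays, a replicate block, and leaving out each array. Figures used Python 3.11.15 and matplotlib 3.10.9.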

Additional observations from a re-analysis of the deposited data

Results flagged for a closer look

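For 6 genes the effect differed between the transgenic lines, as tested by the direct contrast of RKIP-labelled with GRK-Inh hearts in limma, adjusted over all tested genes. The log2 difference was -0.66 for B2m, -0.62 for H2-K1, -0.58 for Igtp, -0.57 for H2-D1, -0.57 for Rsad2 and -0.55 for Bst2. For B2m the effects against controls had opposite signs, and both were called. H2-K1, Bst2 and Igtp also lay on opposite sides of the controls in the lines, but only 1 of the 2 effects of each was called. H2-D1 was called against controls in GRK-Inh hearts alone. For Rsad2 both lines lay below the controls, and only the RKIP-labelled fall was called. With 2 arrays in a group, no array was examined as an outlier.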

How the results depend on the processing

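Of 23 calls of the genes described, 8 were kept under all 17 alternatives: Rsad2, Ifi27l2a and H2-K1 in RKIP-labelled hearts, Trim25 in GRK-Inh hearts, and Rsad2, H2-K1, B2m and Igtp between the lines. Each was followed in the probe set that stands for its gene, and another probe set of Trim25 was not called in GRK-Inh hearts. No result changed direction with a call. The losses given beside a gene above are not always all of them. Irf7 in GRK-Inh hearts lost its call in 9 of the 16 alternatives that tested it, quantile normalization among them. H2-D1 and Ifi27l2a in GRK-Inh hearts also lost theirs with a variance without trend. The 9 genes lower in RKIP-labelled hearts became 5 with no filter, 3 with a variance without trend and 4 to 8 with an array left out; 4 were left without control array 1, and 5 without RKIP-labelled array 1 or control array 2. In GRK-Inh hearts the 3 higher genes became 4 (with H2-K1) with arrays shifted to one median, 1 with a variance without trend and 1 to 3 with an array left out. The 5 lower genes there became 3 with arrays shifted to one median, 3 with no filter, 2 with a variance without trend and 2 to 5 with an array left out. The 6 genes lower in RKIP-labelled than in GRK-Inh hearts were 4 to 7 in all alternatives. With the replicate number as a block, whose pairing of arrays the data do not bear out, 7 genes were lower in RKIP-labelled hearts, 3 higher and 5 lower in GRK-Inh hearts, and 7, with Ifi27l2a, lower between the lines. Over all genes, the 1219, 1477 and 993 calls of the 3 comparisons became 297, 731 and 255 with a variance without trend, and 621 to 1126, 896 to 1483 and 465 to 874 with an array left out. With no filter the last became 617, and with all probe sets tested singly the second became 2324 probe sets. The cause of the losses was not tested. A fit without an array leaves its group with 1 array, assumed to vary like the others.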

Other observations

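Families of interferon-induced genes were also looked at by their symbols, and some of their genes, Iigp1 among them, are already counted in the lists above. Iigp1, an immunity-related GTPase related to Igtp, lay below controls in both lines, with signals of 3872 and 3900 in RKIP-labelled hearts, 4046 and 4030 in GRK-Inh hearts and 5198 and 5247 in controls. It fell by 0.42 ± 0.043 in RKIP-labelled hearts (limma adjusted p = 0.000148) and by 0.37 ± 0.043 in GRK-Inh hearts (adjusted p = 0.000273). Igtp and Irgm2 lay above controls in GRK-Inh hearts, so members of this GTPase family lay on both sides of the controls there. Of these rises that of Igtp was called, with the losses given above, and that of Irgm2 was not (0.24 ± 0.11, limma adjusted p = 0.189). Of the Oas family, whose products make the messenger that activates RNase L, 4 genes were tested and 0 were called by limma in any comparison, and the same held for 4 Schlafen genes. In the Ifit family, Ifit1bl1 was higher in RKIP-labelled than in GRK-Inh hearts, by 0.42 (adjusted p = 0.028), while Ifit1 stood at -0.13. In the Ifi200 family Mndal was the single gene called, lower in RKIP-labelled than in GRK-Inh hearts (-0.33 ± 0.074, limma adjusted p = 0.0204). The Isg15 probe set, which names a second symbol, gave 149 and 140 in RKIP-labelled hearts, 185 and 247 in GRK-Inh hearts and 235 and 183 in controls.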
